A study of Mus musculus with 6 samples.

Results

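Chaperone and unfolded protein response genes of the endoplasmic reticulum (ER) were followed in mouse T cells after co-culture with cisplatin-pretreated or control tumour cells. Hspa5, Hsp90b1, Calr, Pdia4, Pdia6, Dnajb9, Sdf2l1, Xbp1, Herpud1 and Manf were taken by symbol as 10 of the 54532 genes of the table. T cells, isolated with a pan-T-cell kit from spleens of C57BL/6 mice aged 6 to 8 weeks, were kept in 10 ng/mL IL-2, activated for 72 h on beads with anti-CD3 and anti-CD28, and co-cultured with the mouse ovarian cancer line ID8. The ID8 cells had first received 40 µM cisplatin, a DNA-crosslinking platinum drug (cisplatin, 3 libraries), or PBS (control, 3 libraries). All 6 libraries therefore hold activated T cells that had met ID8 cells, and T cells without ID8 cells were not analysed here. The labels do not say whether libraries of a group came from separate mice or cultures, so p-values measure only the spread between these libraries.

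The ER folds proteins bound for the cell surface or for secretion, and chaperones, disulfide isomerases and lectins assist this folding. When unfolded proteins gather there, sensors in the ER membrane start the unfolded protein response: IRE1 splices Xbp1 mRNA into the form that encodes an active transcription factor, ATF6 is cut to release another, and PERK slows translation. Lymphocytes widen this machinery when they are activated and most of all when they become antibody-secreting cells.

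ATF6 and spliced XBP1 act at the ER stress response element (ERSE), which joins a CCAAT box to CCACG through 9 bases of any kind, and at ERSE-II, in which ATTGG, the CCAAT box read from the other strand, stands 1 base before CCACG. RefSeq promoter windows (GRCm38.p6, 250 bases before to 50 after the start site) matched 9 of the 10 genes, and both strands were searched. ERSE stood in the windows of Hspa5, Hsp90b1, Pdia6 and Calr, 4 of 9, against 0.119% of all 32851 promoter windows. ERSE-II stood in that of Herpud1, against 0.0365% of all windows. Pdia4, Dnajb9, Sdf2l1 and Xbp1 had no exact match to either in these windows, and inexact matches were not searched for. The window of Dnajb9 (chr12:44210019-44210318) lies inside the gene as annotated in the deposited data. Sequence before that annotated gene was therefore not searched. The stretches that hold the matches are shown because these elements are the known sites of the response. Each is printed 5′ to 3′ on the strand of its gene, with both ends of the motif in capitals.
Hspa5 (chr2:34772005-34772063, plus strand): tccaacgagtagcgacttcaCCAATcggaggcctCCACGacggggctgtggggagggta
Hsp90b1, far copy (chr10:86705618-86705676, minus strand): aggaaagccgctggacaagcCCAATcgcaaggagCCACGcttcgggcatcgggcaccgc
Hsp90b1, near copy (chr10:86705513-86705571, minus strand, motif reversed): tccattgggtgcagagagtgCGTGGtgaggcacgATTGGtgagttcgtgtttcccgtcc
Pdia6 (chr12:17266471-17266529, plus strand): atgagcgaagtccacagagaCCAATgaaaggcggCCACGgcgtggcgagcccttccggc
Calr (chr8:84847055-84847113, minus strand, motif reversed): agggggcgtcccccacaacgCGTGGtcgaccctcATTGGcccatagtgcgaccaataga
Herpud1, ERSE-II (chr8:94386357-94386407, plus strand): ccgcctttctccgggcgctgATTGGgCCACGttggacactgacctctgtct

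The CCAAT box alone was in 8 of the 9 windows and in 37.4% of all windows, and CCACG alone in 8 of 9 and in 32.8%. Each ERSE match also counts once for the CCAAT box and once for CCACG. Xbp1 held none of these letters in this window. A match describes the sequence and is not evidence of binding.

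**Figure D1:**
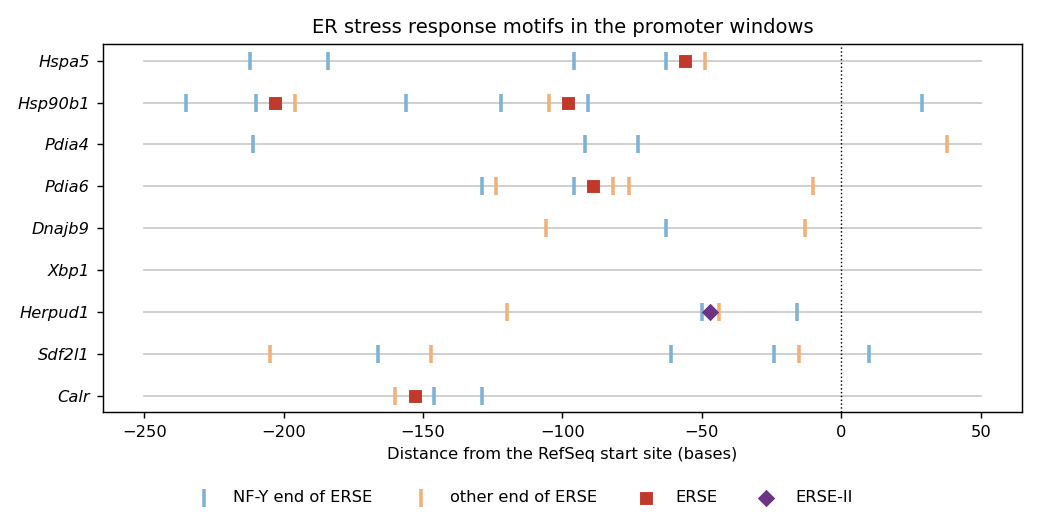
Positions of ERSE (squares), ERSE-II (diamond) and the ends of ERSE (ticks, the CCAAT box as the NF-Y end) in the promoter windows of 9 genes, by distance in bases from the RefSeq start site. Hsp90b1 carries 2 copies of ERSE, Hspa5, Pdia6 and Calr 1 copy each, and Xbp1 no tick.

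The authors deposited FPKM, read counts scaled by gene length and library size, and the reads rebuilt from them came to 30606569 to 32169496 on genes per library. Groups were compared with limma on log2(FPKM + 0.1) over 15874 genes, those averaging 0.5 FPKM or more. Fold changes on this scale understate those of low genes. A gene rose or fell where its Benjamini-Hochberg adjusted p was under 0.05. The libraries also differed in the markers of several cell types, although the T cells had been isolated before the co-culture. Of 26 T-cell identity genes 25 rose and 1 (Themis) fell, and their sum was 3240 to 3315 FPKM with cisplatin and 2059 to 2187 FPKM in the control. Of 26 tested ID8 markers 25 fell, with a sum of 398 to 406 against 2050 to 2152 FPKM. B-cell markers rose in 10 of 10 (3607 to 3684 against 1676 to 1760 FPKM). Plasma-cell markers rose in 9 of 10 (680 to 692 against 315 to 346 FPKM), while Sdc1 fell from 29.7 to 9.45 FPKM. Myeloid markers rose in 7 of 10 (160 to 182 against 124 to 130 FPKM). Of that list Mpeg1 fell from 60.1 to 34.3 FPKM and Cd14 from 7.43 to 5.35 FPKM. The higher myeloid sum rests on Lyz2, at 89.7 FPKM with cisplatin against 30.8 FPKM in the control. No marker of these lists was at 0 in every library. The part of these markers in the results for the ER genes was not tested. In such bulk libraries fewer cells of a type and less RNA per cell cannot be told apart. When libraries were instead set level on their T-cell identity genes (T-cell centring), every log2 fold change shifted by -0.54 and the median over all tested genes went from 0.03 to -0.51. Directions below are on the deposited scale, and those that turn under this centring are named with them.

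On the deposited scale 6 of the 10 genes rose with cisplatin-pretreated ID8 cells (background 27.5% of all tested genes), 2 fell (background 29.0%) and 2 did not pass the test. After T-cell centring 8 fell and none rose. No background was counted at this threshold on that scale, so these counts do not set the 10 genes apart from other genes. All tested genes then had a median log2 fold change of -0.51, with 3527 called lower and 151 higher at 2-fold. The genes that rose on the deposited scale were Herpud1, Sdf2l1, Manf, Pdia4, Calr and Hsp90b1, and Hspa5 and Xbp1 fell. No gene reached a 2-fold change (0 of 10 by limma and 0 of 10 by limma's voom on the rebuilt reads), whereas 16.9% of all tested genes both passed and changed at least 2-fold. The libraries of the groups did not overlap for 9 of the 10 genes, against a background of 64.2%. The median log2 fold change of the 10 was 0.13, with a range of -0.29 to 0.57, where the quartiles of all tested genes were -0.43 and 0.36. Each gene had 631 to 18812 rebuilt reads per library and a coefficient of variation between replicates of 0.783% to 11.4%.

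**Figure D2:**
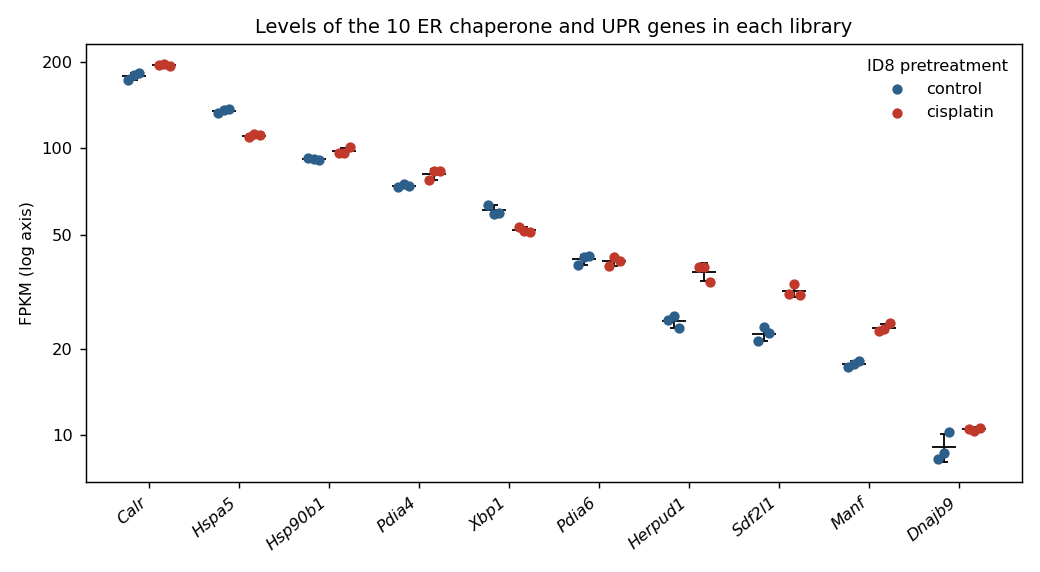
FPKM of each gene (log axis) in the 3 control and 3 cisplatin libraries, with a point per library and a bar for the mean and its SD. Hspa5 and Xbp1 are lower in all 3 cisplatin libraries, Pdia6 overlaps, and the other genes are higher on the deposited scale. After T-cell centring Herpud1 (0.04) and Sdf2l1 (-0.04) do not pass, and the rest of these turn lower.

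Among the large chaperones, Hspa5 fell while Calr and Hsp90b1 rose slightly on the deposited scale and turned lower after T-cell centring. Hspa5 (ENSMUSG00000026864, GRCm38 chr2:34771970-34777547, plus strand) encodes BiP, the Hsp70 of the ER, which holds unfolded chains and keeps the sensors silent. Its levels were 110, 112 and 111 FPKM in cisplatin replicates 1 to 3 and 133, 136 and 137 FPKM in control replicates 1 to 3. Every cisplatin library was thus below every control library, and libraries of a group lay close together. The mean was 111 ± 1.18 FPKM with cisplatin and 136 ± 2.01 FPKM in the control (SD, n = 3), a log2 fold change of -0.29 (SE 0.03, 95% CI -0.35 to -0.23, limma adjusted p = 0.00012), and it was -0.83 after T-cell centring.

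Calr (ENSMUSG00000003814, chr8:84841850-84846934, minus strand) encodes calreticulin, the soluble lectin that binds calcium and monoglucosylated glycoproteins. It measured 196, 197 and 194 FPKM with cisplatin and 173, 180 and 183 FPKM in the control. The groups were apart, with the 3 cisplatin libraries above. Calr had the highest level of the 10 genes in both groups. The means of 196 ± 1.79 and 179 ± 5.30 FPKM (SD, n = 3) gave a log2 fold change of 0.13 (SE 0.03, 95% CI 0.06 to 0.21, limma adjusted p = 0.011), which turned to -0.41 after T-cell centring.

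Hsp90b1 (ENSMUSG00000020048, chr10:86690209-86705509, minus strand) encodes GRP94, the Hsp90 of the ER, which folds integrins and Toll-like receptors. Its level was 96.6, 96.2 and 101 FPKM with cisplatin and 92.8, 91.6 and 91.4 FPKM in the control. The groups did not overlap, but the gap between them was smaller than the range of the cisplatin libraries. The log2 fold change was 0.09 (SE 0.03, 95% CI 0.02 to 0.16, limma adjusted p = 0.037) and turned to -0.45 after T-cell centring. The call was lost when any 1 of the 6 libraries was left out, with adjusted p from 0.051 to 0.1. Of its 4032 exon bases, 415 lie opposite exons of 1810014B01Rik, and whether reads were counted by strand is not given in the sources used here. On the same strand 84 are shared with Gm15344 (mean 4.55 FPKM) and 133 with Gm25745 (mean 0 FPKM).

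Of the co-chaperones, Sdf2l1 rose on the deposited scale, without a positive value after T-cell centring, and Dnajb9 did not pass the test. Sdf2l1 (ENSMUSG00000022769, chr16:17130138-17132383, minus strand) encodes an ER-resident partner of BiP and its J proteins. It stood at 31.0, 33.7 and 30.9 FPKM with cisplatin against 21.2, 23.8 and 22.6 FPKM in the control, so each cisplatin library exceeded each control library by more than the range within a group. The mean was 31.9 ± 1.58 against 22.5 ± 1.31 FPKM (SD, n = 3), 1.42-fold, with a log2 fold change of 0.50 (SE 0.06, 95% CI 0.37 to 0.64, limma adjusted p = 0.00033). This log2 fold change became -0.04 after T-cell centring, which did not pass (limma adjusted p = 0.55).

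Dnajb9 (ENSMUSG00000014905, chr12:44205559-44210326, minus strand) encodes ERdj4, a J protein that brings BiP to IRE1 and to clients of degradation. It was the lowest of the 10 genes, at 10.5, 10.3 and 10.6 FPKM with cisplatin and 8.25, 8.67 and 10.2 FPKM in the control. Control replicate 3 reached almost to the cisplatin libraries, while the remaining control libraries lay well below. The log2 fold change of 0.22 (SE 0.08, 95% CI 0.02 to 0.41) had a limma adjusted p of 0.06, and it turned to -0.32 after T-cell centring. Without control replicate 3 it was 0.31 with an adjusted p of 0.0045. With all 6 libraries it passed by limma under quantile normalization (adjusted p = 0.013), a minimum mean of 5 FPKM (0.044) and voom (0.0053). Of 17 alternatives 12 left it without a call, so the call depended on that library and on the processing.

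Of the disulfide isomerases of the set, Pdia4 passed narrowly on the deposited scale, with a turn of sign after T-cell centring, and Pdia6 did not pass. Pdia4 (ENSMUSG00000025823, chr6:47796141-47813430, minus strand) encodes ERp72 and had 77.3, 83.6 and 83.4 FPKM with cisplatin and 73.4, 75.4 and 73.8 FPKM in the control. Cisplatin replicate 1 lay nearer to the control libraries than to the other cisplatin libraries, without overlap. Its log2 fold change was 0.13 (SE 0.04, 95% CI 0.04 to 0.23, limma adjusted p = 0.023) and turned to -0.40 after T-cell centring. The call was lost without cisplatin replicate 2 (adjusted p = 0.076), cisplatin replicate 3 (0.075), control replicate 1 (0.065) or control replicate 3 (0.062).

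Pdia6 (ENSMUSG00000020571, chr12:17266545-17284770, plus strand) encodes P5, an isomerase that associates with BiP and IRE1. Its values of 38.9, 41.7 and 40.3 FPKM with cisplatin overlapped the 39.1, 41.8 and 42.0 FPKM of the control. It was the single gene of the 10 whose groups overlapped. The log2 fold change was -0.02 (SE 0.04, 95% CI -0.13 to 0.08, limma adjusted p = 0.69), an interval that leaves room for small changes either way, and it was -0.56 after T-cell centring (adjusted p = 9.4e-06).

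Xbp1 (ENSMUSG00000020484, chr11:5520659-5525893, plus strand), the transcription factor whose mRNA IRE1 splices, was the other gene that fell. It was measured at 53.3, 51.6 and 51.0 FPKM with cisplatin and 63.7, 58.9 and 59.5 FPKM in the control. The highest cisplatin library was below the lowest control library. The mean of 51.9 ± 1.19 against 60.7 ± 2.64 FPKM (SD, n = 3) gave a log2 fold change of -0.22 (SE 0.04, 95% CI -0.32 to -0.13, limma adjusted p = 0.003), and -0.76 after T-cell centring. These values are gene totals, in which spliced and unspliced Xbp1 mRNA are counted together.

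Herpud1 and Manf, targets of the response that are not folding enzymes, both rose on the deposited scale, and Manf turned lower after T-cell centring. Herpud1 (ENSMUSG00000031770, chr8:94386438-94395377, plus strand) encodes the membrane scaffold of the HRD1 ubiquitin ligase complex, which removes misfolded proteins. It had 38.6, 38.7 and 34.1 FPKM with cisplatin and 25.1, 26.0 and 23.6 FPKM in the control. Cisplatin replicate 3 was the lowest of its group and still lay far above every control library. The mean of 37.1 ± 2.60 against 24.9 ± 1.24 FPKM (SD, n = 3) was 1.49-fold higher, with a log2 fold change of 0.57 (SE 0.06, 95% CI 0.42 to 0.72, limma adjusted p = 0.00028), above 85.3% of all tested genes. It was the only gene of the 10 with a positive value after T-cell centring, at 0.04, which did not pass (adjusted p = 0.67).

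Manf (ENSMUSG00000032575, chr9:106838312-106891979, minus strand) encodes a secreted ER-resident factor that binds BiP. Its level was 23.0, 23.4 and 24.5 FPKM with cisplatin and 17.3, 17.7 and 18.1 FPKM in the control. The groups were widely apart, with little spread in either. The mean of 23.6 ± 0.767 against 17.7 ± 0.367 FPKM (SD, n = 3) was 1.34-fold higher, a log2 fold change of 0.42 (SE 0.04, 95% CI 0.32 to 0.51, limma adjusted p = 0.00012) that turned to -0.12 after T-cell centring (adjusted p = 0.021). Of its 3524 exon bases, 146 lie opposite exons of Dcaf1 and 166 opposite exons of 4930524O07Rik. On the same strand 14 are shared with Rbm15b (mean 10.9 FPKM).

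**Figure D3:**
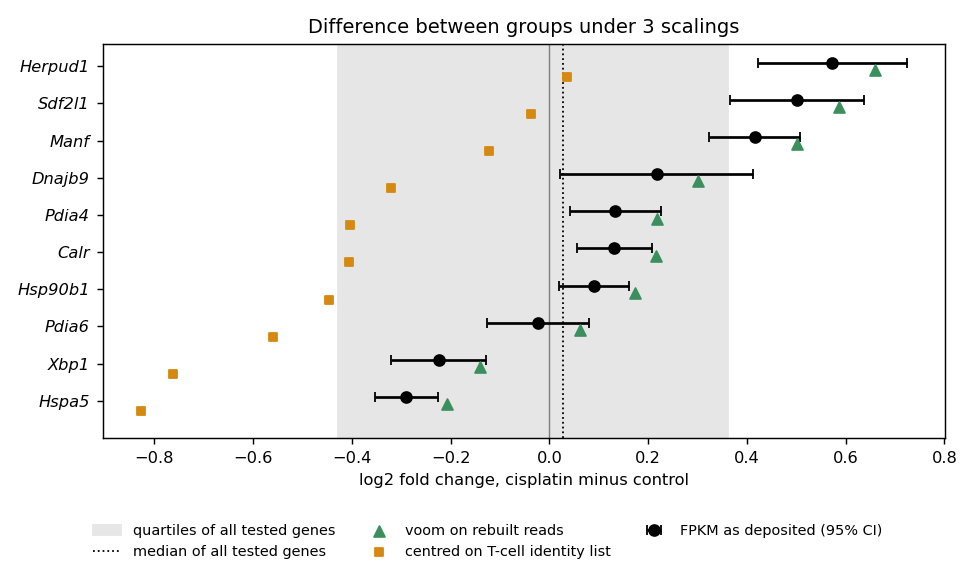
Log2 fold change of each gene, cisplatin minus control, on the deposited FPKM (points with 95% CI, limma, n = 3 per group), from voom on the rebuilt reads (triangles) and after T-cell centring (squares). Grey spans the quartiles of all tested genes (-0.43 to 0.36), and the squares lie 0.54 below the points, so that only Herpud1 stays above 0.

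Ranked by FPKM, which is per length, the 10 genes kept a single order in both groups, from Calr through Hspa5, Hsp90b1, Pdia4, Xbp1, Pdia6, Herpud1, Sdf2l1 and Manf to Dnajb9. The libraries of neighbours in this order were apart in both groups, except for Herpud1 and Sdf2l1, which overlapped in the control. Calr was 1.32 times the level of Hspa5 in the control and 1.76 times with cisplatin. Hspa5 was 1.47 times the level of Hsp90b1 in the control, and this narrowed to 1.13 times with cisplatin. The summed level of the 10 genes was 675 to 688 FPKM with cisplatin and 647 to 661 FPKM in the control, which is 0.225% and 0.220% of all FPKM, and turned lower after T-cell centring, at 563 to 568 against 784 to 794. Hspa5, Hsp90b1 and Calr together had 402 to 406 FPKM with cisplatin, inside the 399 to 411 FPKM of the control, and were below it after T-cell centring, at 332 to 339 against 488 to 491.

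Ratios between genes of a library do not change when a library is scaled by 1 factor, so they were compared next. Of 19 ratios, 18 did not overlap between the groups. Among the 9 with Hspa5 as the denominator 8 did not overlap, against 72.3% of all other tested genes divided by Hspa5. For the ratios with another denominator no background was counted. Each of the 18 had p = 0.1 from a two-sided exact permutation test, the smallest that 3 libraries against 3 allow (adjusted p = 0.106), so none could pass. Relative to Hspa5, 8 of the other 9 genes were higher in every cisplatin library than in every control library, against a background of 51.4% of all other tested genes, with Hspa5 itself among the genes that fell. Herpud1 was 0.353, 0.346 and 0.307 of Hspa5 with cisplatin and 0.188, 0.191 and 0.172 in the control, a 1.82-fold difference of the means. The lowest cisplatin ratio of Herpud1 was thus far above the highest control ratio. For Sdf2l1 the mean ratio was 0.288 ± 0.0124 against 0.166 ± 0.00793 (SD, n = 3), 1.73-fold. Manf followed with 0.213 ± 0.00598 against 0.131 ± 0.00111 (SD, n = 3), 1.63-fold. The ratio of Dnajb9 was 1.42-fold higher, and those of Pdia4 and Calr both 1.34-fold.

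Hsp90b1 was 1.30-fold and Pdia6 1.20-fold higher relative to Hspa5. Xbp1 stood at 0.487, 0.461 and 0.458 of Hspa5 with cisplatin and at 0.478, 0.432 and 0.434 in the control, which overlapped (two-sided exact permutation test, p = 0.3). The other genes thus stood higher against Hspa5 by different amounts, and Xbp1 did so within the spread of the libraries. Relative to Xbp1, Herpud1 was 1.74-fold and Manf 1.56-fold higher.

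**Figure D4:**
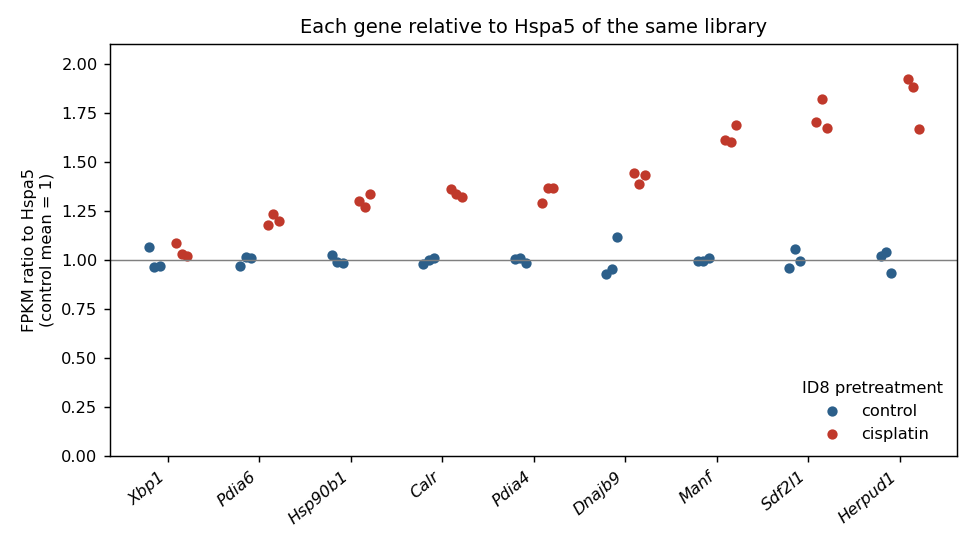
FPKM of each gene divided by Hspa5 of the same library and scaled to the control mean, with a point per library. Xbp1 overlaps between the groups, and the other genes are higher in all 3 cisplatin libraries, up to 1.82-fold for Herpud1, a ratio that 1 scaling factor per library does not change.

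Relatives of the same genes, some outside the ER and some within it, gave a further comparison. Hspa8, the constitutive cytosolic Hsp70, was 474 ± 0.298 FPKM with cisplatin and 398 ± 2.52 FPKM in the control (SD, n = 3), a log2 fold change of 0.25 (limma adjusted p = 0.00023) that turns negative after T-cell centring. The ratio of Hspa5 to Hspa8 was lower with cisplatin, at 0.234 ± 0.00250 against 0.340 ± 0.00639 (SD, n = 3). Hspa9, the mitochondrial Hsp70, fell with Hspa5 (log2 fold change -0.36, limma adjusted p = 0.00021), and the ratio of Hspa5 to Hspa9 was slightly higher with cisplatin, at 2.02, 2.08 and 2.04 against 1.99, 1.87 and 1.98, without overlap.

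The cytosolic forms of Hsp90 both fell, in contrast to Hsp90b1 on the deposited scale, which turns under T-cell centring. Hsp90aa1 had a log2 fold change of -0.52 (limma adjusted p = 1.4e-05) and Hsp90ab1 of -0.37 (limma adjusted p = 9.4e-05). Hsp90b1 was 1.14 times Hsp90aa1 with cisplatin and 0.746 times in the control, without overlap. These cytosolic genes have processed copies in the genome, and how reads matching several genes were treated is not given in the sources used here.

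Sdf2, the close relative of Sdf2l1, had 31.4 ± 2.48 FPKM with cisplatin and 34.3 ± 1.73 FPKM in the control (SD, n = 3) and did not pass (log2 fold change -0.13, 95% CI -0.29 to 0.03, limma adjusted p = 0.15). Sdf2l1 stood at 1.07, 1.08 and 0.909 of Sdf2 with cisplatin and at 0.655, 0.676 and 0.638 in the control. Sdf2 was therefore the higher of the pair in the control libraries, and they were about level with cisplatin. Cdnf, the relative of Manf, was near the lower limit of the test at 0.574 against 0.675 FPKM and did not pass (limma adjusted p = 0.58). Canx, the membrane-bound relative of Calr, fell from 81.1 ± 1.15 to 70.6 ± 0.703 FPKM (SD, n = 3, limma adjusted p = 0.00073), and Calr was 2.77 times Canx with cisplatin against 2.20 times in the control.

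The wider secretory pathway was described with 9 lists that do not hold the 10 genes. Of 124 tested genes of 125 listed, 33 rose (26.6%, background 27.5%), 51 fell (41.1%, background 29.0%) and 40 did not pass, with a median log2 fold change of -0.06. T-cell centring shifts every log2 fold change by -0.54, so all 51 falls stayed negative by construction. Of the 33 rises 5 kept a positive sign. A 2-fold change was reached by 8.87% of these genes, against 16.9% of all tested genes, and these 11 were all lower.

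The sensors of the response did not move together. Of 8 genes of the sensor list 3 rose and 3 fell, and all 3 rises turn negative after T-cell centring. Atf6, the membrane-bound factor that is cut under stress, fell from 16.3 ± 0.369 to 8.49 ± 0.355 FPKM (SD, n = 3), a log2 fold change of -0.94 (limma adjusted p = 6.3e-06). Ern1, which encodes IRE1, fell from 9.32 ± 0.899 to 6.61 ± 0.339 FPKM (SD, n = 3), or by 0.49 on the log2 scale (limma adjusted p = 0.0024). Both thus moved the same way as Xbp1. In contrast, Eif2ak3, which encodes PERK, was 15.8 ± 0.447 with cisplatin against 12.1 ± 0.426 FPKM (SD, n = 3, log2 fold change 0.37, limma adjusted p = 0.00041), a sign that turns to -0.16 after T-cell centring.

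Of 10 genes of the PERK and ATF4 branch, 3 rose, 2 fell and 5 did not pass, and 2 of the 3 rises turn negative after T-cell centring. Atf4, the factor translated when PERK is active, was at 61.1 ± 1.48 and 57.9 ± 3.20 FPKM (SD, n = 3) and did not pass (log2 fold change 0.08, 95% CI -0.03 to 0.19, limma adjusted p = 0.19). Ddit3, which encodes the stress factor CHOP, was 18.3 ± 0.770 against 16.1 ± 1.19 FPKM (SD, n = 3), a log2 fold change of 0.18 (limma adjusted p = 0.047) that turns negative after T-cell centring. Other targets went opposite ways: Trib3, a pseudokinase, fell by 1.31 on the log2 scale (limma adjusted p = 5.6e-05), while Atf5, a related factor, rose by 0.56 (limma adjusted p = 0.00034) and kept a positive sign of 0.02 after T-cell centring.

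The partners of BiP were divided as well. Of 8 tested, 2 rose, both turning negative after T-cell centring, and 4 fell. Dnajb11, a J protein of the ER lumen, was at 31.4 ± 0.318 against 22.9 ± 0.511 FPKM (SD, n = 3), a log2 fold change of 0.46 (limma adjusted p = 3.1e-05), and Dnajc3, the p58IPK co-chaperone, at 0.33 (limma adjusted p = 0.00018), both of which turn negative under that centring. Sil1, which exchanges the nucleotide of BiP, fell with BiP itself from 24.0 ± 0.604 to 12.8 ± 1.33 FPKM (SD, n = 3, limma adjusted p = 7.1e-05). Hyou1, the other exchange factor, did not pass (log2 fold change 0.14, limma adjusted p = 0.061).

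Among 16 genes of disulfide exchange 9 fell and 5 rose, of which 3 rises turn negative after T-cell centring. The summed level of the list was 494 to 497 FPKM with cisplatin and 810 to 828 FPKM in the control, and 2 abundant genes made up most of this gap. P4hb, the archetypal protein disulfide isomerase, fell from 356 ± 4.17 to 125 ± 0.536 FPKM (SD, n = 3), a log2 fold change of -1.51 (limma adjusted p = 1.1e-07). Ero1l, the oxidase that recharges it, fell from 115 ± 1.04 to 14.0 ± 0.701 FPKM (SD, n = 3), a log2 fold change of -3.03 (limma adjusted p = 7.1e-08). Neither Pdia4 nor Pdia6 shared in a fall of this size. Txndc5 and Creld2, both of which encode ER thioredoxin-type or isomerase proteins, rose by 0.73 and 0.59 on the log2 scale (limma adjusted p = 2.1e-06 and 0.00012) and stayed positive after T-cell centring.

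Of 8 tested genes of glycoprotein quality control, the pathway of Calr, 3 rose and 4 fell, and the 3 rises turn negative after T-cell centring. Mlec, the diglucose-binding lectin malectin, had the largest rise of the list (log2 fold change 0.41, limma adjusted p = 2.2e-05), and Lman1, a cargo lectin of ER exit, the largest fall (-0.47, limma adjusted p = 0.0005). Of 12 proline isomerases and other folding factors 7 fell and 2 rose, 1 of them negative after T-cell centring. Fkbp9 fell from 21.9 ± 1.15 to 5.64 ± 0.164 FPKM (SD, n = 3, limma adjusted p = 4.7e-07) and Fkbp14, a collagen-related isomerase, from 4.67 ± 0.439 to 0.575 ± 0.206 FPKM (SD, n = 3, limma adjusted p = 5.3e-05).

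ER-associated degradation, the pathway of Herpud1, had 9 rises and 6 falls among 22 genes, and all 9 rises turn negative after T-cell centring. Edem1, which trims mannose from misfolded glycoproteins, was 65.7 ± 2.22 against 45.9 ± 0.458 FPKM (SD, n = 3), a log2 fold change of 0.52 (limma adjusted p = 2.2e-05), while its relative Edem3 fell by 0.60 on the log2 scale (limma adjusted p = 2.2e-05). Derl3, a channel component that also stands in the plasma-cell list, had a log2 fold change of 0.53 (limma adjusted p = 0.0053). Selenos, which ties the complex to VCP, had one of 0.50 (limma adjusted p = 0.00065). The rises of Edem1, Derl3 and Selenos are close in size to the shift of -0.54, so these genes turn only slightly negative after T-cell centring. Vcp, the ATPase that extracts the substrates, fell by 0.41 on the log2 scale (limma adjusted p = 0.00021).

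Of 24 genes of the translocon and signal peptidase 6 rose, 5 of them negative after T-cell centring, 7 fell and 11 did not pass. Sec11c, a catalytic subunit of signal peptidase, rose from 23.0 ± 1.18 to 41.0 ± 1.51 FPKM (SD, n = 3), a log2 fold change of 0.84 (limma adjusted p = 1.4e-05) and 0.30 after T-cell centring. Sec11c and Txndc5 were the 2 pathway genes that passed the test as higher on the T-cell-centred scale. In ER-to-Golgi transport 9 of 16 genes fell and the other 7 did not pass. The largest falls were those of Kdelr3, a receptor that returns chaperones such as BiP to the ER, from 4.81 ± 0.185 to 0.776 ± 0.261 FPKM (SD, n = 3, limma adjusted p = 7.1e-05), and of Creb3l2, a membrane-bound factor of secretory genes, with a log2 fold change of -1.56 (limma adjusted p = 7.3e-07).

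**Figure D5:**
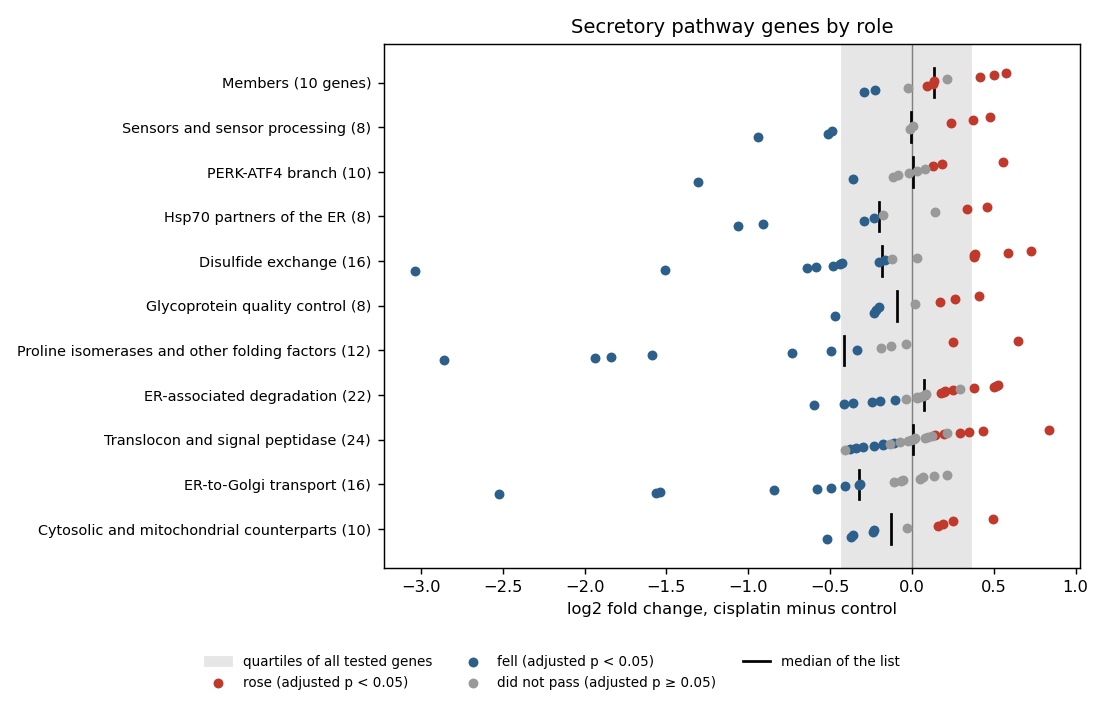
Log2 fold change on the deposited scale of each tested gene (points) of the 10-gene set, of 9 secretory pathway lists and of the cytosolic and mitochondrial counterparts, coloured by the limma test, with the median of each list as a bar. The 10 genes lie between -0.29 and 0.57, while falls of the other lists reach -3.03, and T-cell centring moves every point by -0.54, which turns all rises but 5 of the 9 lists negative.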

How the data were processed

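Poly-A RNA of 6 libraries was sequenced, 3 per group by the sample labels. The authors deposited FPKM per gene. Per the labels, the submitters' processing notes name fastp, HISAT2 2.0.5, featureCounts 1.5.0-p3 and mm10, whereas the study's methods name LifeScope and DESeq2. Gene coordinates equalled GENCODE M21 (GRCm38) for 53499 of 54409 genes. No other sample columns were present. Whole reads were rebuilt from FPKM and gene length (100% of values within 0.1 of a whole read); they cover counting error only. The FPKM denominator was 1.03 to 1.05 times the reads on genes in cisplatin and 0.976 to 0.982 times in control libraries. It thus lowers every deposited log2 fold change slightly. With voom, which scales by the reads on genes, all 10 genes had higher log2 fold changes. Hspa5 was then -0.21 (deposited scale -0.29), Xbp1 -0.14 (-0.22) and Hsp90b1 0.17 (0.09). Replicates differed by more than sampling noise (chi-square per degree of freedom 5.35 to 6.44).

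limma 3.58.1 (R 4.3.3; trend, Benjamini-Hochberg) was run on log2(FPKM + 0.1) over genes averaging 0.5 FPKM or more, after it was tested on simulated data. Calls at 2-fold follow the study's thresholds. Ratios were tested by exact permutation with numpy 2.4.6. Alternatives were other pseudocounts, filters and scalings, voom, leaving out each library and the replicate block. Of 2 rows named Ddit3 the more abundant was used. Named were the 10 genes, up to 3 of the largest rises and of the largest falls of a list, Ern1, Atf6, Eif2ak3, Atf4, Ddit3 and relatives of the 10. The 10 genes, the lists and this rule were chosen with earlier results of these data known. The labels name no batch.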

Additional observations from a re-analysis of the deposited data

How the results depend on the processing

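Over 17 alternatives for each of the 10 genes, 140 of 170 values kept their direction and side of the threshold, 16 lost the call, 5 gained it and 6 turned. In 3 more, Pdia6, which did not pass, changed sign without passing (0.003 without cisplatin replicate 1, 0.039 with quantile normalization and 0.061 with voom). Hspa5 and Xbp1 kept theirs in all 17. Centring on the T-cell identity genes turned Hsp90b1 (-0.447), Pdia4 (-0.404), Dnajb9 (-0.321), Sdf2l1 (-0.036), Calr (-0.406) and Manf (-0.122). It left 8 of the 10 genes lower and 0 higher by limma, and 110 pathway genes lower and 2 higher (51 and 33 on the deposited scale). No background was counted at this threshold after the centring. The 2687 genes called at 2-fold became 1762 with a pseudocount of 1 and 1145 where genes had to average 5 FPKM. Of the calls, 75.7% were lower on the deposited scale, 95.9% after T-cell centring, 64.6% after quantile normalization and 68.3% (2423 lower, 1127 higher) with voom, and the median log2 fold change of all genes was then -0.51, 0.16 and 0.10. Hsp90b1 also lost the call without the filter on low values (adjusted p = 0.079 by limma), with TPM (0.14) and without the variance trend (0.12), and Pdia4 without the trend (0.07). Dnajb9 passed with quantile normalization (0.013), a minimum mean of 5 FPKM (0.044) and voom (0.0053).

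Libraries with the same replicate number did not deviate together (correlations of 0.0229, -0.0630 and -0.0207), and only control replicate 1 correlated best with its own number. With the replicate block 2662 genes were called at 2-fold, and Hsp90b1 lost the call (limma adjusted p = 0.069), so 5 of the 10 genes were higher and 2 lower.

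With 3 libraries per group and this spread between replicates, the intervals given for Pdia6, Atf4 and Sdf2 leave room for small differences. Not passing the test therefore does not show that these genes were unchanged.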
